A study of Mus musculus with 91 samples.

Results

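Heat shock proteins and J-domain chaperones were followed in the brains of APP/PS1 mice and their wild-type (WT) littermates. The set was every gene on the array whose annotated symbol begins with Hspa, Hspb, Hspd, Hspe, Hsph, Hsp90 or Dnaj and for which a probe reached a detection p under 0.05 on 9 or more of that tissue's arrays. Of 58 such genes annotated on the array, 52 of 9958 named genes measured in frontal cortex and 51 of 10042 in hippocampus belonged to it, and 53 of 10301 over both tissues. Each gene was read from its brightest probe.

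APP/PS1 mice form amyloid plaques and carry a pair of transgenes, known in this line to be driven by the neuronal Thy1 promoter. They received saline (PBS), 50 µg per day of an antisense oligonucleotide (ASO) against CD33, a receptor of microglia, or as much of a control ASO that matches no target (CON ASO); WT littermates were given PBS. Infusion by pump into the right ventricle of the brain began at 18 weeks and lasted 14 days, all mice lived singly after surgery, and left frontal cortex and left whole hippocampus were taken at 22 weeks. No unoperated mice and no WT mice given an ASO were analysed here, so pump surgery is shared by every group. The 45 cortical arrays held 12 WT PBS, 9 APP/PS1 PBS, 13 APP/PS1 CON ASO and 11 APP/PS1 CD33 ASO mice, and the 46 hippocampal arrays held 12, 9, 13 and 12. Each array is 1 mouse, and 44 of 47 mice gave both tissues.

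Heat shock proteins hold unfolded proteins and help them fold. Small heat shock proteins (Hspb genes) bind unfolding proteins without using ATP, Hsp70 proteins (Hspa genes) bind and release them with ATP, and Hsp90 proteins finish the folding of selected clients. J-domain proteins (Dnaj genes) bring clients to an Hsp70 and make it split ATP, and most of them serve a single place in the cell. In the cytosol, unfolded protein releases heat shock factor, which raises transcription of inducible chaperones through heat shock elements. The endoplasmic reticulum and the mitochondria each have an Hsp70, an Hsp90 or chaperonin, and J-domain partners of their own, induced through separate stress pathways.

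By compartment, 31 cytosolic, 9 endoplasmic reticulum and 8 mitochondrial members were measured in cortex, and 31, 8 and 8 in hippocampus, with 4 others of nuclear or unassigned place in each. Hspbp1, an exchange factor of Hsp70, and Hspbap1, which binds Hspb1, carry the letters of the small heat shock proteins but are not members of that family. In cortex, 44 of the 52 members were detected on all 45 arrays, and in hippocampus 41 of the 51 on all 46. The dimmest members inside the rule were Hspa5 in cortex, detected on 11 arrays, and Hspb2 in hippocampus, detected on 9. Just outside it lay Hspb2 in cortex, detected on 5 arrays, and Hspa1l in hippocampus, detected on 3. Hspa4 and Hspa5 were members in cortex alone, with 2 hippocampal arrays each, and Dnajb8, Dnajc5b, Dnajc5g, Hspa13 and Hspa1l were outside it in both tissues. Hspa5 encodes BiP, the abundant Hsp70 of the endoplasmic reticulum, while its probe read near background here. Hspa1b, Hsp90ab1 and Dnajb11 were not analysed here, and the Hspa1a probe may also read its near-identical copy Hspa1b.

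The promoters of 47 of the 58 genes were matched by symbol in RefSeq (build GRCm38.p6), as the 250 bases before the annotated start. A heat shock element pair, GAANNTTC or TTCNNGAA on either strand, lay in 13 of these 47 windows (27.7%), and in 14.5% of 27025 genes. Cytosolic genes held it in 10 of 29 windows, endoplasmic reticulum genes in 1 of 8 and mitochondrial genes in 2 of 6. The longer triplet, in which GAA, TTC and GAA (or TTC, GAA and TTC) follow each other with 2 bases between, contains the pair and lay in Dnajb6, Hspd1 and Hspe1 and in 0.514% of all genes. Since Hspd1 and Hspe1 share a bidirectional promoter, their windows may hold the same stretch and count it for both genes. The endoplasmic reticulum stress element, CCAAT and CCACG with 9 bases between on either strand, lay in Dnajc3, Hsp90b1 and Hspa5, all of the endoplasmic reticulum, and in 0.13% of all genes. The windows below belong to the 3 members that rose in CON ASO mice (Hspb1, Dnaja4 and Hspb8), to the mitochondrial chaperonin Hspd1, and to the 3 genes with the endoplasmic reticulum element. They were picked for these traits and are no test of a difference between compartments. Each is printed 5′ to 3′ on the strand of its gene, and capitals mark the element: the pair in Hspb1 and Dnaja4, none in Hspb8, overlapping triplets in Hspd1, and the endoplasmic reticulum element in the last 3.
Hspb1 (chr5:135887669-135887918, plus strand): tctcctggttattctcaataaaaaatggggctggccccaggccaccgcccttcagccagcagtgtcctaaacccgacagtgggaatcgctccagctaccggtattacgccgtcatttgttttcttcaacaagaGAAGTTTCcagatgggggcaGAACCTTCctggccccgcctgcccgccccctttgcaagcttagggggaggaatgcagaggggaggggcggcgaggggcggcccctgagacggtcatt
Dnaja4 (chr9:54699309-54699558, plus strand): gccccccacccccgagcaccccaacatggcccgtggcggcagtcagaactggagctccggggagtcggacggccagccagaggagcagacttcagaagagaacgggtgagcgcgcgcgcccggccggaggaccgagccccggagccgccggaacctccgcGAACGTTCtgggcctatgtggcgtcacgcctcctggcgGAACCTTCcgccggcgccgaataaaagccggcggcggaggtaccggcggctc
Hspb8 (chr5:116422865-116423114, minus strand): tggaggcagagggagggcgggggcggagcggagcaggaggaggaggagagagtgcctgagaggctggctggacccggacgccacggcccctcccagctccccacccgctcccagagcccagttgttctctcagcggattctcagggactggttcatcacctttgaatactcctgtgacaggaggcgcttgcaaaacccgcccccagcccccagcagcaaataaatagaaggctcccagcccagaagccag
Hspd1 (chr1:55087933-55088182, minus strand): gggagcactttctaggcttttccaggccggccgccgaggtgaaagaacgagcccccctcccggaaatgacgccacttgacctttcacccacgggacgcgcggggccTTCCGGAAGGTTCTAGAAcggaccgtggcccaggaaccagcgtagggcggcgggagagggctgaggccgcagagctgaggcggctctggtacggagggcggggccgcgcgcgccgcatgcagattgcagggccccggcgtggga
Hspa5 (chr2:34771840-34772089, plus strand): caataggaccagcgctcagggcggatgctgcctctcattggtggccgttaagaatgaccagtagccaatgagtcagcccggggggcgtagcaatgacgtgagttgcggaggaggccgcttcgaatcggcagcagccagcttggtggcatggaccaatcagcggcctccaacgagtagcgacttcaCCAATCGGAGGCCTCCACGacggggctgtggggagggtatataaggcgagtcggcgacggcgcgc
Hsp90b1 (chr10:86705445-86705694, minus strand): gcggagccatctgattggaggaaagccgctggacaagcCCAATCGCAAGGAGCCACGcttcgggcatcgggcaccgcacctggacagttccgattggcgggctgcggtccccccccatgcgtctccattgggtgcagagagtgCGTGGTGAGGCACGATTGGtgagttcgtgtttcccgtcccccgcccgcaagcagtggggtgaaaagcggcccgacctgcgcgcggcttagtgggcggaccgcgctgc
Dnajc3 (chr14:118937682-118937931, plus strand): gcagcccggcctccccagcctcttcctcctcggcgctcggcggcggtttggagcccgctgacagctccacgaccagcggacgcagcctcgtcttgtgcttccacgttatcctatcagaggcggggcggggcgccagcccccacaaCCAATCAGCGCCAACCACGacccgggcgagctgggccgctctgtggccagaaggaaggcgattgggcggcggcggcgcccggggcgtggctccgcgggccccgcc

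A matched element is a match of letters and no evidence of binding. The Hspb1 and Dnaja4 windows held 2 pairs each, and the Dnaja4 pair farther from the start began 90 bases before it. RefSeq lists 2 starts for Dnaja4 and for Hspd1, of which the first whose window holds the element is shown. The Hspb8 window held no such pair. The Hsp90b1 window held 2 copies of the endoplasmic reticulum element, in opposite orientations.

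Arrays detected between 12555 and 13905 of 25697 probes. Cd33, the gene targeted by the ASO, had a median log2 signal of 7.10 in cortex of CON ASO mice and 6.48 in CD33 ASO mice, with overlapping ranges. In hippocampus it ranged from 6.33 to 6.89 in CON ASO mice and from 5.07 to 6.39 in CD33 ASO mice. One mouse labelled CD33 ASO went against its label in both tissues. Its Thy1 signal, which rises with the transgene cassette, was 14.10 in cortex, where WT mice ranged from 14.08 to 14.24 and the other CD33 ASO mice from 14.77 to 14.93. Its Cst7 signal, a gene of plaque-associated microglia, was 5.33 in cortex against 9.48 to 10.66 in the others of its group, and 5.37 in hippocampus against 8.03 to 9.29. The mouse was kept under its label. Counts of called members and the Hspb1 values for CD33 ASO against PBS are also given without it. Other values of CD33 ASO mice, partner genes and markers among them, include it unless stated. Values below are log2 signals after normalization within a tissue, errors of differences are standard errors of the limma fit, and adjusted p-values are Benjamini-Hochberg values over all probes of the tissue. Levels of different genes come from different probes and are not compared.

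The first question was which chaperones differed between APP/PS1 and WT mice given PBS. In frontal cortex, 1 member rose, the small heat shock protein gene Hspb6, and 9 fell. The 9 were 6 J-domain genes of the cytosol (Dnajc6, Dnajc12, Dnajb5, Dnaja4, Dnajb1 and Dnajb6), the Hsp70 exchange factor gene Hspbp1, and 2 J-domain genes of the mitochondrial inner membrane, Dnajc15 and Dnajc30. The 10 of 52 called stand beside 19% of all named genes called in this comparison, 9.38% higher and 9.66% lower, so the share of members that changed was near that of all genes. The median change of the members was -0.06 on the log2 scale, and -0.02 over all genes.

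Hspb6 encodes a small heat shock protein of muscle and glia. Its cortical signal ranged from 9.65 to 9.98 in WT PBS mice (median 9.80) and from 10.34 to 10.67 in APP/PS1 PBS mice (median 10.55). The groups did not overlap: the lowest transgenic mouse lay above the highest WT mouse. The difference was 0.70 ± 0.11, a 1.62-fold rise (limma, adjusted p = 3.57e-06). Within the 6 chips it ran from 0.65 to 0.78, and within the 4 collection days from 0.65 to 0.76. CON ASO mice ranged from 10.15 to 11.04 and CD33 ASO mice from 9.62 to 11.25. The lowest CD33 ASO value belonged to the mouse that went against its label, and was below the WT range.

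The falls were smaller. Dnajc6 encodes auxilin, the neuronal J-domain protein that directs Hsc70 to strip clathrin from vesicles. Its cortical signal was 13.05 to 13.24 in WT mice (median 13.13) and 12.92 to 13.00 in APP/PS1 PBS mice (median 12.98). All 9 transgenic mice lay below every WT mouse, and the difference was -0.16 ± 0.03 (adjusted p = 7.77e-05). Dnajc12 encodes a co-chaperone of the aromatic amino acid hydroxylases. It ranged from 7.95 to 8.47 in WT mice (median 8.26) and from 7.68 to 8.03 in APP/PS1 PBS mice (median 7.90). Of the 9 transgenic mice 6 lay below the WT range, and the difference was -0.33 ± 0.08 (adjusted p = 0.000941). Dnajb5, a J-domain partner of cytosolic Hsp70, ranged from 7.04 to 7.77 in WT mice (median 7.49) and from 6.98 to 7.46 in transgenic mice (median 7.11). The ranges overlapped, and the difference was -0.33 ± 0.08 (adjusted p = 0.0024).

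Dnaja4, a J-domain gene with 2 heat shock element pairs in the window printed above, ranged from 9.61 to 9.82 in WT and from 9.38 to 9.60 in APP/PS1 PBS mice. The groups did not overlap, and the fall was -0.16 ± 0.04 (adjusted p = 0.00574). Dnajb1, the main stress-induced J-domain protein of the cytosol, fell by 0.12 (adjusted p = 0.0235), with all 9 transgenic mice below the WT median. Dnajb6, which holds back aggregation of polyglutamine proteins, fell by 0.32 (adjusted p = 0.043) on its brightest probe, while its other probe gave -0.001 (adjusted p = 0.99). The call was also lost with no filter on dim probes (adjusted p = 0.082). Hspbp1 fell by 0.18 (adjusted p = 0.00477). The plot of members that changed with genotype shows the mice behind 4 of these differences.

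**Figure D1:**
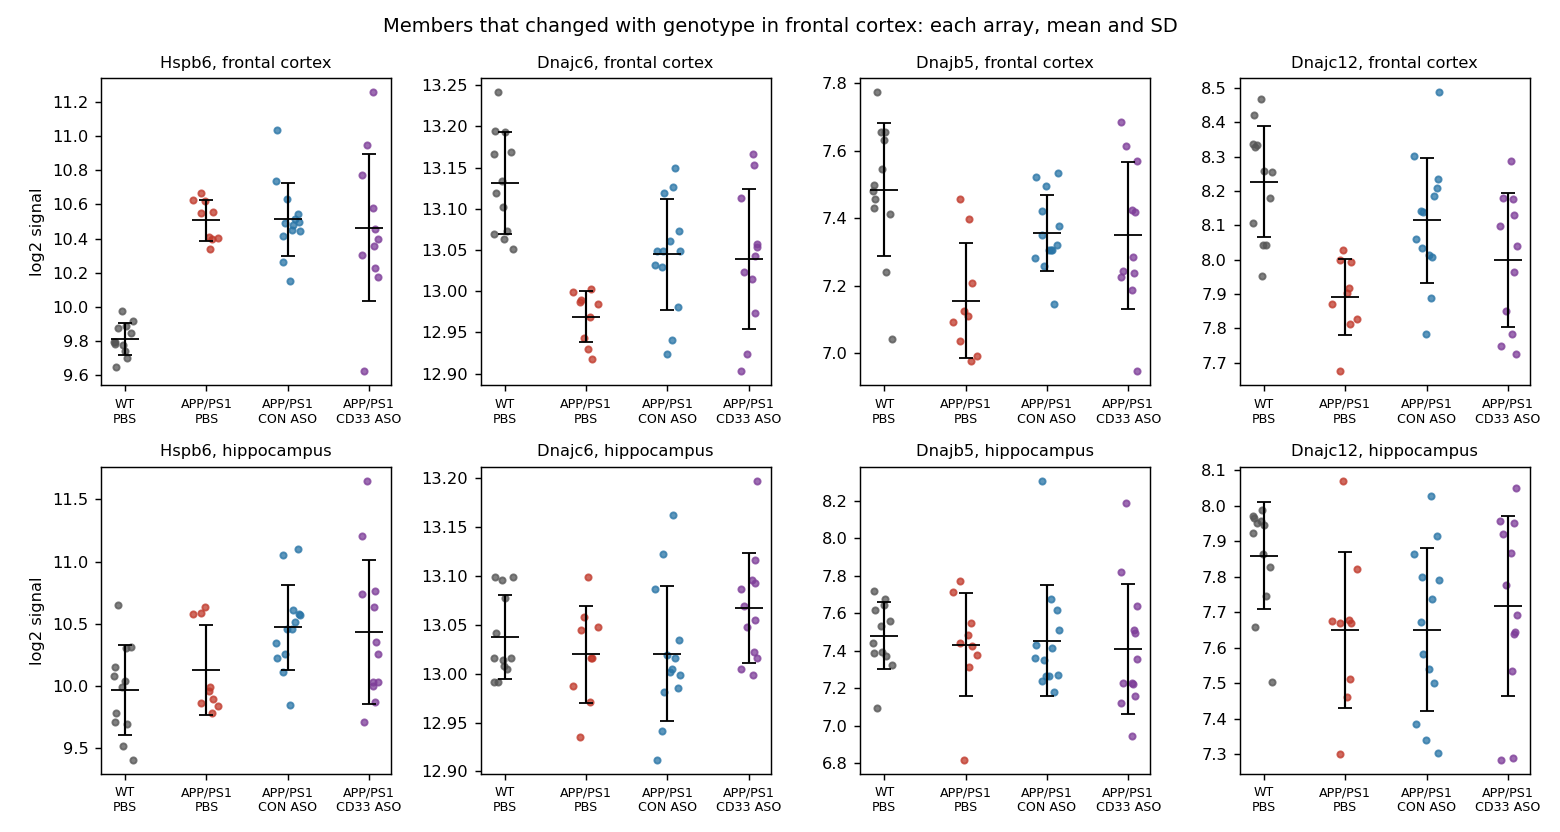
Log2 signal (vertical axis) of Hspb6, Dnajc6, Dnajb5 and Dnajc12 in each mouse (points) of the 4 groups (horizontal axis), in frontal cortex (upper row) and hippocampus (lower row); black bars are the mean and SD. In cortex the APP/PS1 PBS mice lie wholly above the WT mice for Hspb6 and wholly below them for Dnajc6, and in hippocampus both pairs of groups overlap.

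By compartment, 1 cytosolic member rose and 7 fell of 31, with a median change of -0.05. None of the 9 endoplasmic reticulum members passed the threshold, with changes from -0.20 to 0.11 and a median of -0.06. Of the 8 mitochondrial members 2 fell, and the median was -0.04. Dnajc15, an inner membrane J-domain protein related to the import motor, fell by 0.18 (adjusted p = 0.00755), with 7 of 9 transgenic mice below the WT range. Dnajc30, a mitochondrial J-domain protein that binds ATP synthase, fell by 0.12 (adjusted p = 0.00407). The 3 compartments were not tested against each other.

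The major folding machines of each compartment did not pass the threshold on their brightest probes. Hspa8, the constitutive Hsp70 of the cytosol, differed by -0.06 (adjusted p = 0.279), and its dimmer probe by -0.28 (adjusted p = 0.0296). Hspa9, the mitochondrial Hsp70, differed by -0.02 (adjusted p = 0.705), and its dimmer probe by -0.15 (adjusted p = 0.00331). Hsp90b1, the Hsp90 of the endoplasmic reticulum, differed by 0.02 (adjusted p = 0.886). The chaperonin genes Hspd1 and Hspe1, the inducible Hspa1a, the exchange factor gene Hsph1 and Hsp90aa1 had changes between -0.17 and 0.02 and adjusted p-values from 0.478 to 0.945. Hspb1 and Hspb8, the other bright small heat shock protein genes, differed by 0.21 (adjusted p = 0.103) and 0.19 (adjusted p = 0.126). Values for Dnaja1, Dnajb9, Dnajc3 and Dnajc5 lay between -0.19 and 0.11, with adjusted p-values from 0.261 to 0.719.

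In the list of co-chaperones and heat shock factors that work with these chaperones, 2 of 30 genes rose and 6 fell. Bag3, the partner of Hspb8 in selective autophagy, rose by 0.20 (adjusted p = 0.00672). That list also holds Cryba4, a beta-crystallin gene that is neither co-chaperone nor heat shock factor, which rose by 0.57 (adjusted p = 0.00377). Ahsa1, the activator of the Hsp90 ATPase, fell by 0.21 (adjusted p = 0.00765), and Ppp5c, a phosphatase bound to Hsp90, fell by 0.21 (adjusted p = 0.00327). In the endoplasmic reticulum list, 1 of 22 genes rose (P4hb, a disulfide isomerase, 0.15) and 2 fell (Calr, the calcium-binding chaperone calreticulin, -0.34, and Syvn1, -0.09). Of 12 chaperonin and prefoldin genes 2 fell (Cct6a and Pfdn4), and of 15 mitochondrial genes 1 fell (Grpel1, the exchange factor of mitochondrial Hsp70).

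Cell type markers moved with genotype. All 7 microglial markers on the array of 9 listed rose in cortex, and all 7 passed the detection filter. Their summed linear signal was 2236 to 2718 in WT PBS and 7039 to 11040 in APP/PS1 PBS mice. Of 8 astrocyte markers 5 rose, with sums of 22610 to 26460 and 26740 to 32180. Of 6 neuronal markers 1 fell (Syt1), with sums of 55320 to 58480 and 52880 to 57950. Their part in the chaperone values was not tested, and in such bulk tissue fewer cells of a type and less RNA per cell cannot be told apart.

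In hippocampus the same comparison called 1 of 51 members, where 2.58% of all genes were called, 2.01% higher and 0.568% lower. Dnajb4, a J-domain partner of cytosolic Hsp70, ranged from 5.92 to 6.91 in WT mice (median 6.33) and from 5.49 to 6.38 in APP/PS1 PBS mice (median 5.98). The ranges overlapped, and the difference was -0.46 ± 0.12 (adjusted p = 0.0166). Its other probe, dimmer there, gave 0.02 (adjusted p = 0.967), and the call was lost when probes were averaged (adjusted p = 0.304). Hspb6 differed by 0.16 ± 0.18 (adjusted p = 0.735), and Dnajc6 by -0.02 ± 0.03 (adjusted p = 0.798). Of 7 microglial markers 5 rose in this tissue, with sums of 1802 to 2390 in WT and 4266 to 6792 in APP/PS1 PBS mice, and of 8 astrocyte markers 1 (Gfap). Choroid plexus markers differed by a median of -0.93 with 0 of 4 called. Their part in the Dnajb4 value was not tested.

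Whether the genotype effect differed between tissues was tested as an interaction over all 91 arrays normalized together. For Dnajc6 the effect was -0.17 in cortex and -0.02 in hippocampus, a difference of 0.15 ± 0.04 (adjusted p = 0.00787), in a test that called 3.59% of all genes, 1.07% with a higher and 2.52% with a lower effect in hippocampus. With arrays centred on their medians in place of quantile normalization the adjusted p was 0.299. For Hspb6 the effects were 0.71 and 0.15, and the difference of -0.56 ± 0.19 did not pass (adjusted p = 0.096). With differences taken within each mouse, 3 members passed in place of 1: Dnajc6, Hspb1 and Hspb6. In the same test 4 of 7 microglial and 4 of 8 astrocyte markers had a smaller rise in hippocampus, and their part was not tested.

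The second question was what infusion of a non-targeting oligonucleotide did to the set. In cortex of APP/PS1 mice, Hspb8, Hspb1 and Dnaja4 rose with CON ASO against PBS, and the mitochondrial Dnajc19 fell, which makes 4 of 52 members where 2.85% of all genes were called, 1.21% higher and 1.65% lower. In hippocampus the same 3 genes rose and Dnajc16, of the endoplasmic reticulum, fell, 4 of 51 members where 1.47% of all genes were called, 0.976% higher and 0.498% lower. The median change over the members was 0.0003 in cortex and 0.0008 in hippocampus, and -0.002 and -0.008 over all genes. This comparison and the genotype comparison share the APP/PS1 PBS mice.

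Hspb1 encodes the stress-induced small heat shock protein that binds unfolding proteins and actin. Its cortical signal was 7.42 to 7.96 in APP/PS1 PBS mice (median 7.78) and 7.54 to 8.42 in CON ASO mice (median 8.08). Of 13 CON ASO mice 11 lay above the highest PBS mouse, and the difference was 0.35 ± 0.09, or 1.27-fold (adjusted p = 0.0277, and 0.0551 with median centring). WT PBS mice ranged from 7.26 to 7.96. In hippocampus Hspb1 ranged from 6.43 to 7.56 in PBS mice (median 7.10) and from 6.90 to 8.41 in CON ASO mice (median 7.93). There too 11 of 13 mice lay above every PBS mouse, and the rise was 0.80 ± 0.15, or 1.74-fold (adjusted p = 0.00152). Within chips the hippocampal difference ran from 0.24 to 1.64, and the cortical one from -0.03 to 0.79, with 1 of 6 chips below 0.

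Hspb8 encodes a small heat shock protein that works with Bag3 to hand misfolded proteins to autophagy. In cortex it ranged from 7.15 to 7.85 in PBS mice (median 7.56) and from 7.65 to 8.20 in CON ASO mice (median 7.95). All but 1 of the 13 CON ASO mice lay above the highest PBS mouse, and the rise was 0.42 ± 0.09, or 1.34-fold (adjusted p = 0.00299). In hippocampus it ranged from 7.47 to 8.07 and from 7.77 to 8.53, with 10 of 13 CON ASO mice above the PBS range, a rise of 0.43 ± 0.11 (adjusted p = 0.0389, and 0.0504 with no filter). WT PBS mice ranged from 7.39 to 8.56 in that tissue and overlapped both groups.

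Dnaja4 ranged in cortex from 9.38 to 9.60 in PBS mice and from 9.65 to 9.84 in CON ASO mice. These did not overlap, and the rise was 0.25 ± 0.04, or 1.19-fold (adjusted p = 0.000495). WT PBS mice, at 9.61 to 9.82, lay in nearly the same range as CON ASO mice. In hippocampus the ranges were 9.64 to 10.09 and 9.83 to 10.24, with 5 of 13 CON ASO mice above the PBS range and a rise of 0.21 ± 0.06 (adjusted p = 0.0383, and 0.0892 with median centring).

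**Figure D2:**
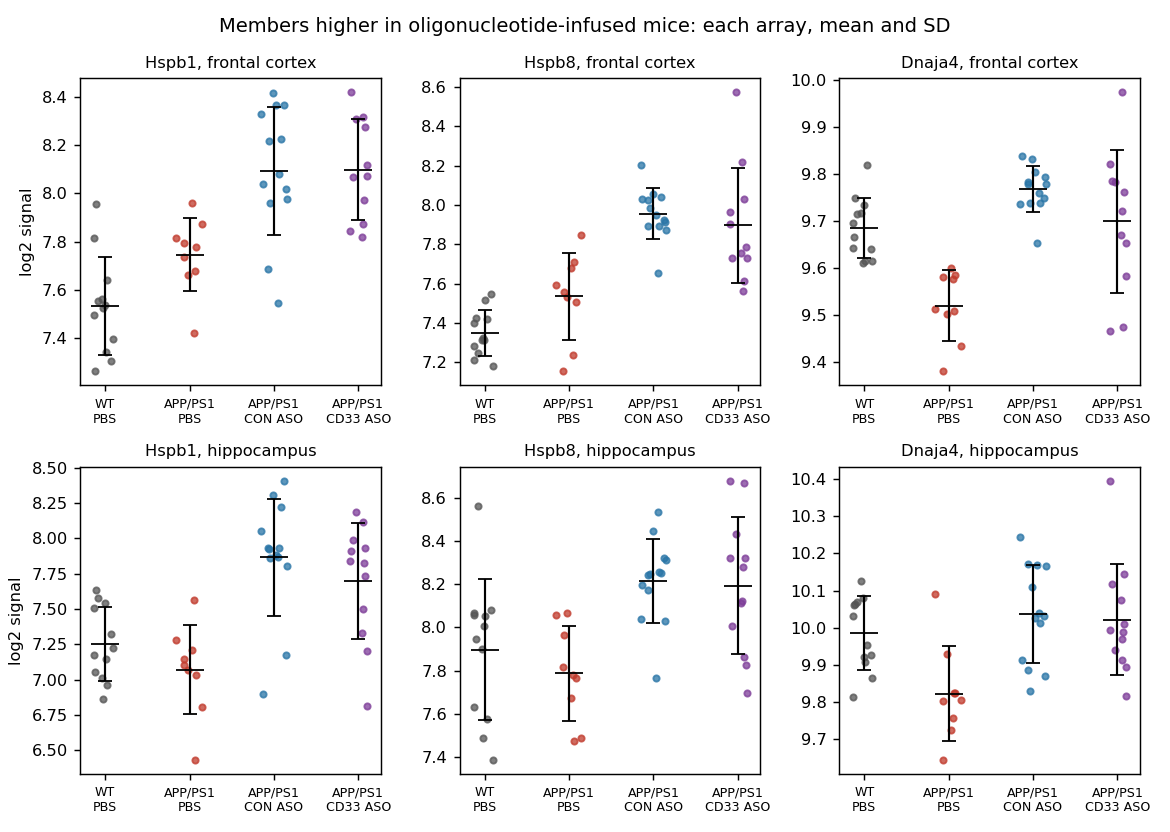
Log2 signal (vertical axis) of Hspb1, Hspb8 and Dnaja4 in each mouse (points) of the 4 groups (horizontal axis), in frontal cortex (upper row) and hippocampus (lower row); black bars are the mean and SD. In cortex 11 of 13 CON ASO mice lie above the highest APP/PS1 PBS mouse for Hspb1, 12 of 13 for Hspb8 and 13 of 13 for Dnaja4.

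Of the other inducible members of the cytosol, Dnajb1 differed by 0.12 (adjusted p = 0.0762) in cortex and 0.10 (0.162) in hippocampus. Hspa1a, the inducible Hsp70, differed by 0.20 (adjusted p = 0.286) and 0.26 (0.114), and Hsph1 by 0.13 (0.116) and 0.13 (0.35). Hspa8 differed by -0.003 and 0.06, Hsp90aa1 by -0.08 and -0.13, Dnaja1 by -0.34 and -0.07, and Dnajc5, which serves synaptic vesicles, by -0.03 and 0.04, none past the threshold. With array weights the cortical count was 8 in place of 4, adding Dnajb1, Dnajc12, Dnajc16 and Hsph1. These weights also called more of all probes of the tissue, higher and lower. The rise in calls was therefore not confined to chaperones.

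In the other compartments the changes were falls. Dnajc19, the inner membrane partner of the mitochondrial import motor, ranged in cortex from 11.48 to 11.83 in PBS mice (median 11.66) and from 11.29 to 11.58 in CON ASO mice (median 11.52). The ranges overlapped, and it fell by 0.17 (adjusted p = 0.0388); its dimmer probe gave 0.03 (adjusted p = 0.923), the mean of both did not pass (adjusted p = 0.661), and 4 of 6 chips showed the fall. Dnajc16, a membrane J-domain protein of the endoplasmic reticulum, ranged in hippocampus from 9.34 to 9.63 in PBS mice (median 9.46) and from 8.90 to 9.43 in CON ASO mice (median 9.33). Of 13 CON ASO mice 8 lay below the PBS range, and it fell by 0.20 (adjusted p = 0.0397, and 0.326 with median centring). Of the genes with the endoplasmic reticulum stress element, Dnajc3, an inhibitor of the stress kinase PERK, differed by 0.06 in cortex (adjusted p = 0.762) and by 0.23 in hippocampus (0.108), and Hsp90b1 by -0.002 and 0.08 (adjusted p = 0.994 and 0.75). Hspa5 differed by -0.005 in cortex and was outside the rule in hippocampus. Dnajb9, a J-domain partner of BiP, differed by 0.12 and -0.04, and the mitochondrial Hspa9, Hspd1 and Hspe1 by between -0.08 and -0.009 in the 2 tissues, none past the threshold.

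Partner genes rose with CON ASO in cortex, where 5 of 30 co-chaperones passed the threshold and 0 fell. They were Stip1, which bridges Hsp70 and Hsp90 (0.21, adjusted p = 0.00156), the Hsp90-bound immunophilin genes Fkbp5 (0.44, adjusted p = 0.0032) and Fkbp4 (0.15, adjusted p = 0.00663), the Hsp90 partner Chordc1 (0.23, adjusted p = 0.0209) and Ahsa1 (0.20, adjusted p = 0.0388). Of these, Stip1 and Ahsa1 were called lower in APP/PS1 PBS than in WT PBS cortex. The same APP/PS1 PBS mice are the reference here. In hippocampus 0 of 29 passed. In the endoplasmic reticulum list 3 of 22 rose in cortex and 2 of 21 in hippocampus. Xbp1, a transcription factor of the unfolded protein response, rose by 0.25 in cortex (adjusted p = 0.00143) and by 0.32 in hippocampus (0.00026). Creld2 rose by 0.22 (adjusted p = 0.0377) and 0.28 (adjusted p = 0.0205), and the disulfide isomerase gene Pdia4 rose by 0.26 in cortex (adjusted p = 0.0487). None of 12 chaperonin and prefoldin genes and none of 15 mitochondrial partner genes passed in cortex, and none of 11 and 15 in hippocampus.

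Oligodendrocyte markers were lower beside these changes: in cortex 3 of 6 on the array fell (Mbp, Mag and Cnp), with summed signals of 45830 to 50860 in PBS and 37710 to 50300 in CON ASO mice, and in hippocampus 1 of 6 fell (Mag). Choroid plexus markers, 4 of 5 listed, differed by a median of 1.38 in hippocampus with 0 called, and their sums were 2198 to 30070 in PBS and 6687 to 34250 in CON ASO mice. No microglial or astrocyte marker passed in either tissue, and in cortex 1 of 4 hippocampal dissection markers rose (Wfs1, by 0.37). The part of these markers in the chaperone values was not tested.

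The rise of the 3 genes was not shown to differ between tissues. The interaction called 0 members by limma, and 0.0874% of all genes (0.00971% higher, 0.0777% lower), with 1586 probes under an unadjusted p of 0.05. For Hspb1 the effects were 0.78 in hippocampus and 0.35 in cortex, a difference of 0.43 ± 0.16 (p = 0.00801, adjusted p = 0.302).

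The third question was the effect of the CD33 sequence itself, read as CD33 ASO against CON ASO. No member passed in either tissue by limma, where 0.161% of all genes were called in cortex (0.0703% higher, 0.0904% lower) and 0.119% in hippocampus (0.00996% higher, 0.11% lower), and 1405 and 618 probes had an unadjusted p under 0.05. The median member change was -0.007 in cortex and 0.01 in hippocampus. The nearest was Dnajc10, a disulfide reductase of the endoplasmic reticulum that works with BiP. In cortex it ranged from 10.73 to 11.05 in CON ASO mice (median 10.89) and from 10.56 to 10.89 in CD33 ASO mice (median 10.69). Of 11 CD33 ASO mice 8 lay below the CON ASO range, and the difference was -0.18 ± 0.04 (adjusted p = 0.0502). It passed under 8 of the alternatives tried, and lay just outside the threshold here. In hippocampus it differed by -0.20 ± 0.06 (p = 0.00129, adjusted p = 0.338). Hspb1 differed by 0.005 and -0.17, Hspb8 by -0.06 and -0.02, and Hspb6 by -0.05 and -0.03, all with adjusted p-values of 0.841 or more. Among partner genes, the prefoldin subunit gene Pfdn2 fell by 0.20 in cortex (adjusted p = 0.0235) and Spg7, of a mitochondrial protease, rose by 0.27 (adjusted p = 0.0413). The interaction with tissue called 0 members and 0% of all genes, with 1365 probes under an unadjusted p of 0.05.

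CD33 ASO was also set against PBS, a comparison that shares its mice with both comparisons above. In cortex Hspb8 (0.36 ± 0.09, adjusted p = 0.0226), Hspb1 (0.35 ± 0.10, adjusted p = 0.043) and Dnaja4 (0.18 ± 0.04, adjusted p = 0.0262) rose and Dnajc10 fell by 0.20 (adjusted p = 0.0147), 4 of 52 members where 1.6% of all genes were called, 0.663% higher and 0.934% lower. For Hspb1 the CD33 ASO mice ranged from 7.82 to 8.42, and 8 of 11 lay above the PBS range. For Hspb8 they ranged from 7.56 to 8.57, and 5 of 11 lay above it. Without the mouse that went against its label, 3 members passed, and Hspb1 kept its size (0.36) with an adjusted p of 0.0515. Without the mice measured in a single tissue, 2 passed (Hspb8 and Dnajc10). Of 14 alternatives, the limma call was lost in 6 for Hspb1 (adjusted p up to 0.0876) and in 4 for Dnaja4 (up to 0.167). For Hspb8 it was lost in 2 (up to 0.142) and for Dnajc10 in 1 (0.109).

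In hippocampus 1 member passed, where 0.568% of all genes were called, 0.229% higher and 0.339% lower. Hspb1, at 6.82 to 8.19 in CD33 ASO mice (median 7.83), rose by 0.63 ± 0.15 (adjusted p = 0.0422). Of 12 mice 8 lay above the PBS range. Without the mouse that went against its label the value was 0.60 and the adjusted p 0.0598, so 0 members passed. By contrast, 7 passed without the mice measured in a single tissue and 6 with the chip as a block. Both of these settings also called more of all probes of the tissue, higher and lower. The rise in calls was therefore not confined to chaperones. Oligodendrocyte markers were lower in this comparison too, 3 of 6 in cortex (Mog, Mag and Cldn11) and 2 of 6 in hippocampus (Mobp and Mog). Their sums were 38210 to 46510 in cortex of CD33 ASO mice, against the 45830 to 50860 of PBS mice, and their part was not tested. Stip1 (0.16) and Chordc1 (0.25) rose in cortex, and Xbp1 (0.24) and the Hsp90 co-chaperone gene Cdc37l1 (0.24) in hippocampus. The map of all members by comparison sets these values side by side.

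**Figure D3:**
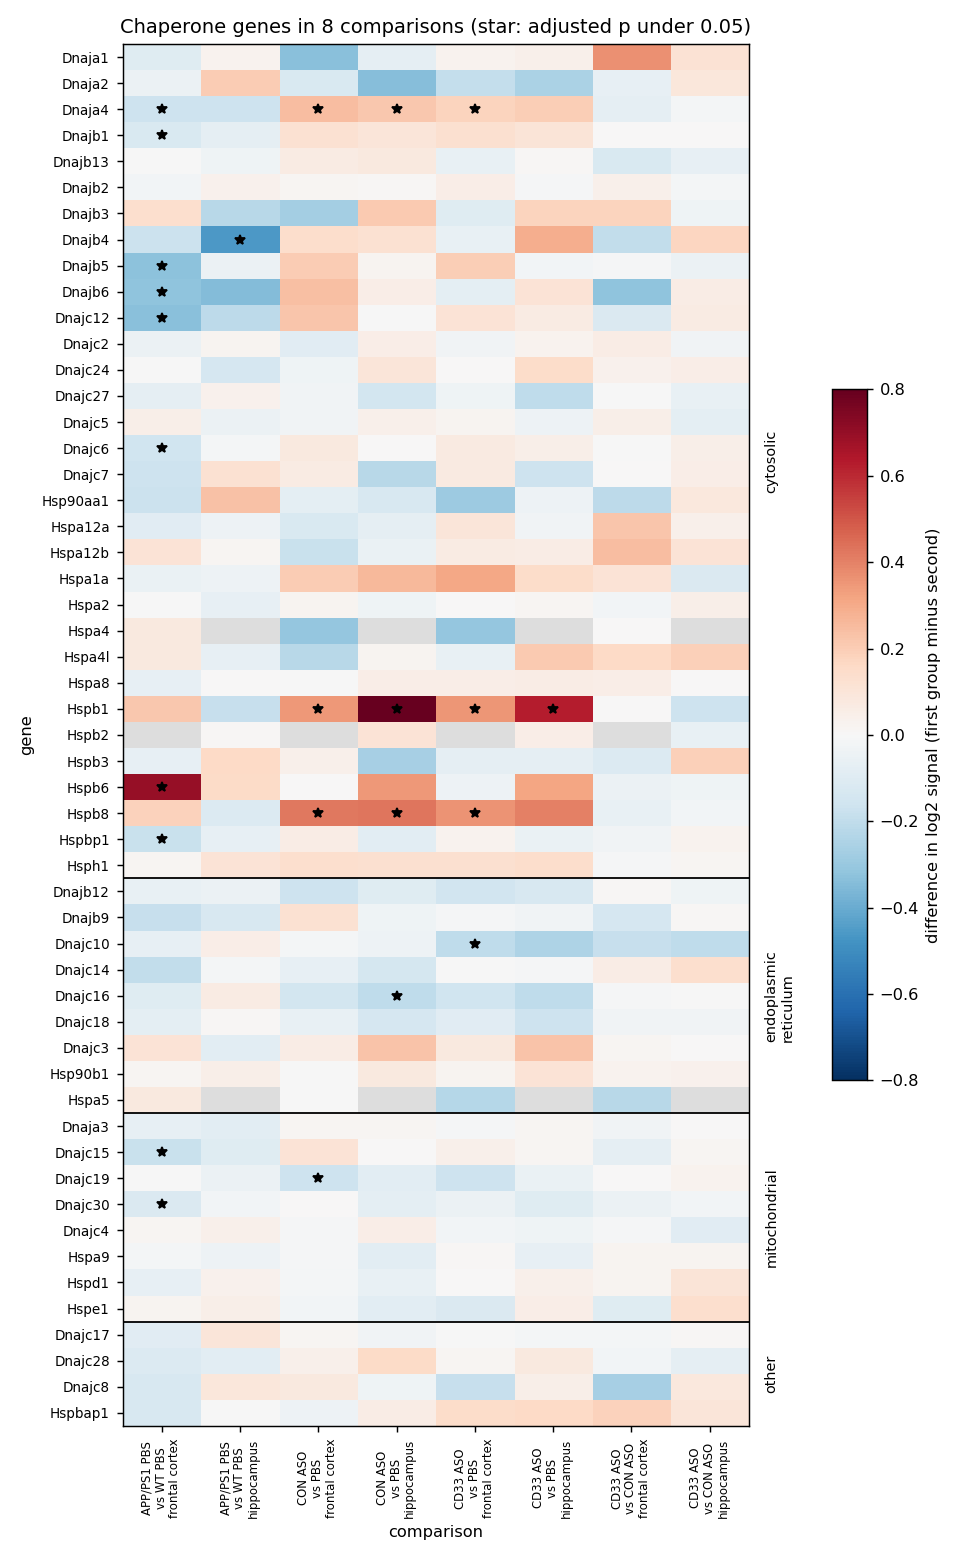
Difference in log2 signal (colour) of each chaperone gene (vertical axis, by compartment) in 8 comparisons (horizontal axis); stars mark an adjusted p under 0.05 and grey cells genes not measured in that tissue. Hspb1 and Hspb8 are red in all 4 columns of an ASO against PBS, and no star stands in the 2 columns of CD33 ASO against CON ASO.

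The last comparison set hippocampus against frontal cortex in the 12 WT PBS mice, on values of both tissues normalized together and with the mouse as a random block. Of 53 members 31 differed, 11 higher and 20 lower in hippocampus, where 56.8% of all genes differed, 30.5% higher and 26.3% lower. Among these 53, Hspa4 and Hspa5 were members through cortex alone and Hspb2 through hippocampus alone. Of the 50 members inside the rule in both tissues 29 differed, 11 higher and 18 lower. The median member difference was -0.08, and 0.02 over all genes. The split of higher and lower calls depends on the scaling: it was 13 and 13 with median centring and 6 and 32 with each tissue normalized alone, which moved the median of all probes from 0.02 to -0.14.

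In the cytosol 8 of 32 members were higher in hippocampus and 10 lower, and of the 30 inside the rule in both tissues 8 and 9. Hspb8 ranged from 7.08 to 7.45 in cortex (median 7.22) and from 7.49 to 8.64 in hippocampus (median 8.07). The tissues did not overlap, all 12 mice were higher in hippocampus, and the difference was 0.74 ± 0.09, or 1.67-fold (adjusted p = 1.8e-12). Hspa2, an Hsp70 best known from testis, was 11.11 to 11.49 in cortex and 11.81 to 12.33 in hippocampus. It too was higher in all 12 mice, by 0.71 ± 0.05 (adjusted p = 2.13e-24). Dnaja4 was higher by 0.43 ± 0.04 (adjusted p = 1.48e-15) and Hspa1a by 0.44 ± 0.08 (adjusted p = 5.83e-07), each in 12 of 12 mice. Dnajb13 was higher by 0.53, Dnajb5 by 0.19 and the synaptic Dnajc5 by 0.15. Dnajb3 was called higher too, but 2 of 12 cortical and 7 of 12 hippocampal arrays detected it, and no fold is given. With each tissue normalized alone Dnajb5 reversed to -0.00533, and Dnajb3 and Dnajc5 no longer passed.

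Hspb3, a small heat shock protein best known from muscle, ranged from 6.57 to 7.27 in cortex (median 6.88) and from 4.78 to 5.73 in hippocampus (median 5.16), where 3 of 12 arrays detected it. The tissues did not overlap (adjusted p = 8.89e-30). Since most hippocampal arrays did not detect it, the fold is a bound: at least 2.54-fold lower, with each hippocampal array held at no less than its lowest detected signal. Hsp90aa1, the inducible cytosolic Hsp90, was lower in 12 of 12 mice (adjusted p = 1.02e-11). Of 12 hippocampal arrays 8 detected it, and by the same bound it was at least 2.05-fold lower. Hspa8 was lower by 0.21 ± 0.04 (adjusted p = 3.7e-07), in 12 of 12 mice, though with median centring its difference did not pass. Dnajb1 was lower by 0.22 ± 0.03 (adjusted p = 3.05e-09). Dnaja2, Hspa4l, Dnajc12, Hsph1 and Dnajc2 were also lower, with differences from -0.57 to -0.12. Those of Dnajc12, Hsph1 and Dnajc2 did not pass with median centring. Hspa4l was detected on 37 of 46 hippocampal arrays over all groups, and no bound was computed for it. Of 12 arrays a tissue, 7 cortical and 0 hippocampal ones detected Hspa4, which entered through the tissue where it is higher. No fold is given for Hspa4. Its test enters the counts of all and of cytosolic members, both of which are also given without it. It also enters the member median, which is not given without it. Hspb1 (-0.08, adjusted p = 0.554) and Hspb6 (0.28, adjusted p = 0.0507) did not pass.

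Of 9 endoplasmic reticulum members 1 was higher and 5 lower, and of the 8 inside the rule in both tissues 1 and 4. Dnajb9 ranged from 9.40 to 10.25 in cortex and from 8.48 to 9.42 in hippocampus, was lower in 12 of 12 mice, and differed by -0.70 ± 0.10 (adjusted p = 3.94e-09). Hsp90b1 differed by -0.34 ± 0.06 (adjusted p = 2.47e-06), and Dnajc16 and Dnajc10 by -0.21 and -0.15, the latter not passing with median centring. Dnajc3, which shares the endoplasmic reticulum stress element with Hsp90b1, was higher by 0.30 ± 0.06 (adjusted p = 1.92e-05), in 11 of 12 mice. A part of the element in the difference of either gene was not tested. For Hspa5, which entered through cortex alone, 2 of 12 arrays there and 0 of 12 from hippocampus detected it, so no fold is given. Its test enters the counts of all and of endoplasmic reticulum members, both of which are also given without it. It also enters the member median, which is not given without it.

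Of 8 mitochondrial members 2 were higher and 4 lower. Both chaperonin genes were lower. Hspe1, the lid of the chaperonin, was 8.13 to 9.20 in cortex and 6.96 to 8.62 in hippocampus, a difference of -0.83 ± 0.15 (adjusted p = 1.51e-06). Hspd1, its barrel, was 10.48 to 11.16 and 10.11 to 10.92, a difference of -0.37 ± 0.08 (adjusted p = 1.87e-05), and both were lower in 12 of 12 mice. These genes share a bidirectional promoter, and both windows hold the heat shock element triplet. Dnajc19 was lower by 0.21, and Dnajc15 by 0.14, which did not pass with median centring. Hspa9 (0.11 ± 0.03, adjusted p = 0.000461) and Dnaja3 (0.12 ± 0.03, adjusted p = 0.000385), the matrix Hsp70 and its J-domain partner, were higher, but neither passed with each tissue normalized alone. Among the others Dnajc8, a J-domain protein of splicing complexes, was lower by 0.87 ± 0.17 (adjusted p = 1.11e-05).

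**Figure D4:**
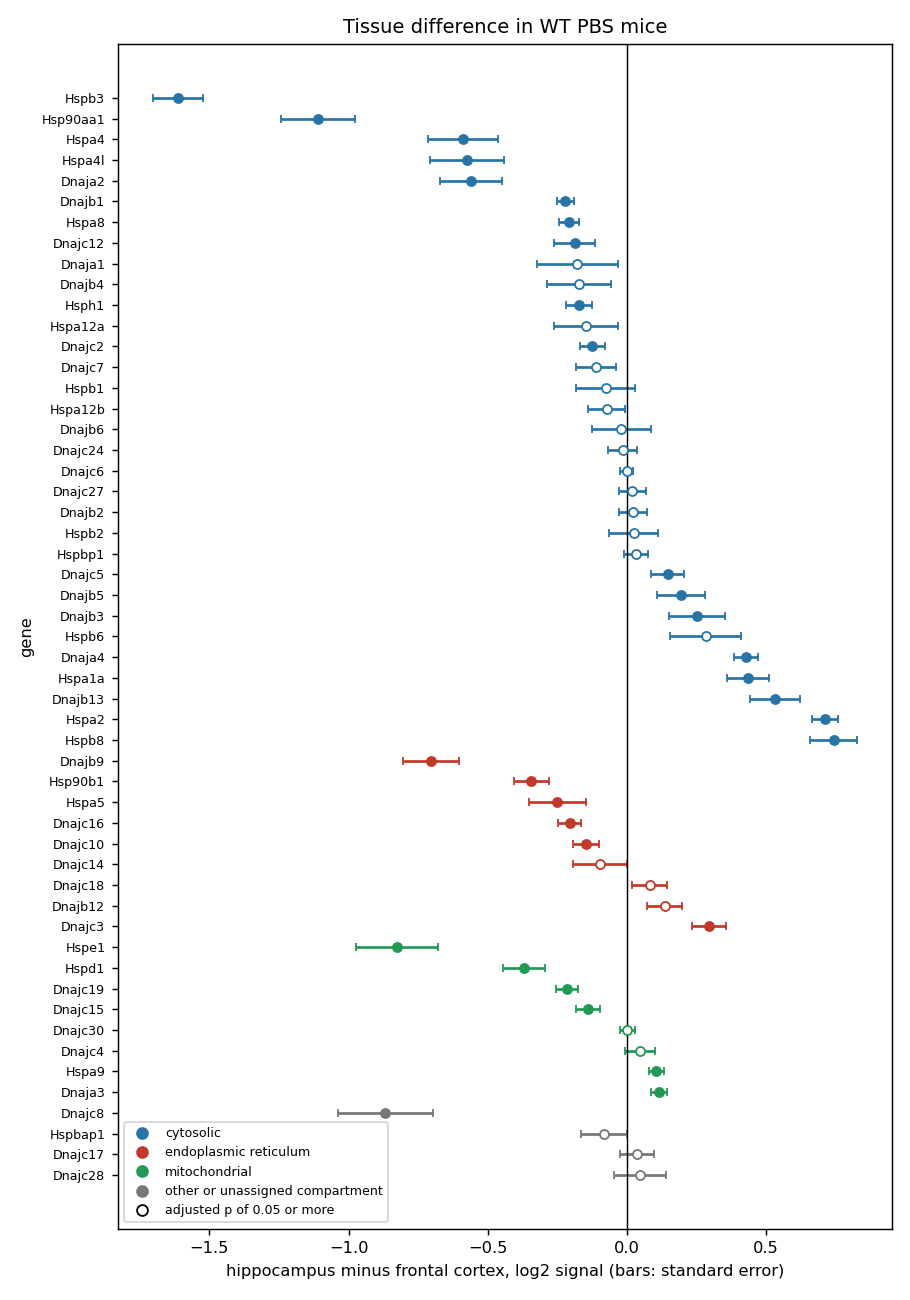
Difference of hippocampus minus frontal cortex in log2 signal (horizontal axis, bars are standard errors) for each chaperone gene (vertical axis) in WT PBS mice, coloured by compartment; open points have an adjusted p of 0.05 or more. Hspb8 and Hspa2 lie farthest right, at 0.74 and 0.71, and the points of Hspb3 and Hsp90aa1, at left, include hippocampal arrays that did not detect them (3 and 8 of 12 did). The filled points of Hspa4 and Hspa5 are not read, as 0 of 12 hippocampal arrays detected either gene. Dnajb3, also filled, was detected on 2 of 12 cortical arrays.

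In the partner lists, 11 of 30 co-chaperones were higher in hippocampus and 10 lower, with Fkbp5 higher by 0.98 (adjusted p = 1.37e-20) and Bag3 by 0.56 (adjusted p = 3.1e-14). Of 12 chaperonin and prefoldin genes 2 were higher and 5 lower, of 22 endoplasmic reticulum genes 5 and 6, and of 15 mitochondrial genes 4 and 3. In hippocampus 29 co-chaperone, 11 chaperonin and prefoldin and 21 endoplasmic reticulum genes passed the detection filter, so the rest entered through cortex alone. The counts of these lists include them. Cell type and dissection markers differed between the tissues as well. The choroid plexus markers Ttr, Kl and Clic6 were higher in hippocampus, as were 6 of 8 astrocyte and 3 of 4 hippocampal markers, while the astrocyte marker S100b was lower. Both striatal markers on the array (median -2.37) and the frontal cortex marker Cux2 were lower. Folr1, of the choroid plexus, passed the detection filter in hippocampus alone, and Rspo1 in cortex alone. Each entered through the tissue where it was higher, so neither call is used. Of 6 neuronal markers 1 was higher (Slc17a7) and 3 lower (Rbfox3, Eno2 and Gad1), 3 of 6 oligodendrocyte markers were higher (Mobp, Cnp and Cldn11), and 1 of 7 microglial markers was lower (P2ry12). Which cells carry the chaperone differences was not tested.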

How the data were processed

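Total RNA of 91 tissue samples was hybridised to Illumina bead arrays. The deposited table holds an intensity and a detection p-value for each of 25697 probes per array, per the file headers. Intensities below 0 make up 25.1%, which shows that some background was removed upstream by an unstated method. Tools named in the submitters' processing notes are Partek, BeadStudio and GenomeStudio (no version). A second deposited table, on the log2 scale with offset and background step unknown, served as an alternative. Groups follow the sample titles, with 9 APP/PS1 and 12 WT mice given PBS; the labels' treatment text has 1 fewer in each.

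Each tissue was normalized with neqc of limma 3.58.1 (R 4.3.3), an offset of 16 added, then quantile normalization and log2. Kept probes had a detection p under 0.05 on 9 or more arrays, 14346 in cortex and 14449 in hippocampus. Of all probes 16814 carry 1 gene symbol, 73 of them for the 58 chaperone genes. The limma fit gave each of a tissue's 4 groups its mean (eBayes, trend and robust), two-sided, with Benjamini-Hochberg adjustment over all kept probes and a threshold of 0.05. Tissues were compared over 14884 probes in a joint normalization with mice as random blocks (statmod 1.5.0; correlation within mice 0.169). The steps were tested on simulated data with known changes. Named genes were a set of classical chaperones, every member past the threshold up to 12 in each direction, and up to the 4 genes of smallest p past the threshold in each partner list. Ahsa1 with CON ASO, Dnajc10 and Hspb6 with CD33 ASO against CON ASO, and members beside a value lost under an alternative were named after their values were seen. The members, partner lists, marker lists, tests and alternatives were chosen with earlier results of these data known. Same-numbered mice of 2 groups shared a chip in 36 of 61 cortical and 53 of 63 hippocampal pairs, but no label makes the number a pairing.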

Additional observations from a re-analysis of the deposited data

Results flagged for a closer look

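In the groups of 9 mice (APP/PS1 PBS), each member was searched for a single array far from the rest, over 52 cortical and 51 hippocampal members, and 8 had one, where chance gives about 5%. Cortical replicate 5 holds 4 of them, with Dnajb2 low at 10.95 (next mouse 11.12), Dnajc27 low at 10.16 (next 10.34) Dnajc15 high at 10.80 (next 10.61) and Hsp90aa1 high at 7.17 (next 6.75). In cortex, Dnajc2 was high in replicate 1 at 10.18 (next 9.93), and Dnajc14 was low in replicate 3 at 5.25 (next 5.72), where it was not detected (detection p = 0.105). In hippocampus, Dnajb5 was low in replicate 1 at 6.82 (next 7.31), and Hspa1a was high in replicate 8 at 7.80 (next 7.48). Of these genes Dnajc15 was called lower in APP/PS1 PBS cortex, with the far mouse on the side of WT.

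The genotype effect on Dnajc6 differed between the tissues, by 0.15 in hippocampus minus cortex (effects of -0.02 and -0.17, adjusted p = 0.00787 by limma).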

How the results depend on the processing

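Of the alternatives, 122 left a count of called members within 1.5 times its value and 26 did not; 574 single changes kept direction and call, 46 lost the call and 1 reversed, Dnajb5 between tissues (-0.00533 with tissues normalized separately). The causes were not tested. Against PBS, CON ASO called 8 cortical members with array weights (4 reported), a setting that also called more of all probes. In hippocampus it called 2 with median centring and 1 with no filter (4 reported). With median centring the cortical split was 2 higher and 2 lower. CD33 ASO against CON ASO in cortex called 1, Dnajc10, in place of 0 with no background correction, joint normalization, the submitters' value table, the stricter filter, chip, collection day or replicate block, and the mean over probes. CD33 ASO against PBS in cortex (4 reported) called 1 with median centring and 2 with no filter, without mice measured in a single tissue, and with the compared groups alone. In hippocampus (1 reported) it called 0 with median centring, no filter, the compared groups alone or without the mouse of CD33 ASO replicate 3. It called 6 with chip as a block, 5 with the replicate block and 7 without mice measured in a single tissue. Each setting that called more members there also called more of all probes. The hippocampal genotype call (1 reported) became 0 with the mean over probes and with the compared groups alone. The tissue difference of genotype (1 reported) became 0 with median centring and 3 with within-mouse differences (Dnajc6, Hspb1 and Hspb6).

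Same-numbered mice of 2 groups, most of which share a chip, had correlated deviations of -0.424 to 0.525, with medians by comparison from -0.107 to 0.223. The highest median was that of CD33 ASO against CON ASO in hippocampus, with 10 of 12 pairs over 0.1. In no comparison were all pairs over 0.1, so the numbers were not taken as a pairing. With the replicate block the cortical counts were 12 for genotype and 6 for CON ASO. More of all probes were called with that block too, in both comparisons. Depth of signal limits Hspa4, Hspa5, Hspb2, Hspb3, Hsp90aa1 and Dnajb3, which lie near background in 1 tissue or both. It also limits Hspa12a, on 30 of 45 cortical and 17 of 46 hippocampal arrays, and Dnajc28, Dnajc14, Dnaja1 and Hspa4l, undetected on some arrays of both tissues. Dnajc8 was detected on 43 of 46 hippocampal arrays.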
